A study of Mus musculus with 12 samples.

Results

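The response of wild-type mouse embryonic fibroblasts (MEFs) to neocarzinostatin (NCS) was taken from 6 of the 12 RNA-seq samples of the series, chosen by their labels. The cells were primary MEFs of the FVB strain, grown from embryos of day 13.5 at 5% O2 and used at passage 3. Of the wild-type samples, 3 were untreated (WT1_C to WT3_C) and 3 had received NCS at 250 ng/ml for 3 h (WT1_T to WT3_T). The labels do not say whether the 3 numbered samples came from separate embryos. The study's figure that shows counts from this RNA-seq has a legend that describes all its graphs as averages over 3 independent experiments, of cells or mice. The p-values measure the spread between these samples, part of which may be technical. The other 6 samples, 3 untreated and 3 given the same NCS treatment, were E2f1 3KR/3KR (3KR) MEFs, whose knock-in allele replaces acetylated lysines of E2F1 by arginine. These entered the model fit, and the final comparison only. The comparison asks which transcripts changed within 3 h of DNA breakage in cells with an intact E2f1 gene. Of 37991 genes in the count files, 15327 passed a filter on low counts and all of these are described.

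NCS is an enediyne antibiotic that attacks the sugar backbone of DNA and leaves double-strand breaks much as ionizing radiation does. The breaks switch on the ATM kinase, which stabilises the transcription factor p53. The p53 protein then raises genes that stop the cell cycle, repair DNA or prepare the cell for apoptosis, and among them is Mdm2, whose product marks p53 for destruction. ATM and ATR also act through the checkpoint kinases to hold cells before mitosis, and p53 lowers many mitotic genes through p21 and the DREAM repressor complex. Fibroblasts are known to answer such damage mainly with arrest rather than death.

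Counted reads per wild-type sample were between 36817729 and 45279321, and 3 counts, taken as the floor of detection, were 0.0663 to 0.0815 CPM, the unit of counts scaled to a common library total. The fibroblast label held: 14 of 14 fibroblast markers were above the floor in all 6 samples, with a summed level of 48600 to 49400 CPM in untreated samples and 49200 to 50200 CPM after NCS. Markers of other cells were far lower. The summed level of 19 macrophage markers was 145 to 170 CPM untreated and 155 to 173 CPM after NCS. Of these, 18 were above the floor in all 6 samples. Only Cd163, a scavenger receptor of macrophages, was at or under 3 counts in every sample. The sum was 391 to 399 CPM untreated and 368 to 385 CPM after NCS for Schwann cell markers, 153 to 158 and 164 to 167 CPM for endothelial, 14.6 to 15.5 CPM over all 6 samples for epithelial markers, and 145 to 150 and 140 to 145 CPM for muscle markers. Above the floor in all 6 samples were 14 of 14 Schwann cell, 9 of 12 endothelial, 2 of 12 epithelial and 8 of 13 muscle markers. Tie1 and Cldn5 of endothelium, Esrp1, Krt5 and Cldn3 of epithelium and Myf5 and Pax7 of muscle were at or under the floor throughout. The part of such cells in the results was not tested. In bulk RNA, fewer cells of a type and less RNA per cell cannot be told apart. Replicate 3 stood apart from replicates 1 and 2 in both treatments, which differed from it by a chi-square of 8.99 to 11.3 per gene and from each other by 2.35 to 2.37. Pairs of 3KR samples of the same group differed by 2.06 to 2.44. As these share the estimate of spread, the tests do not rest on the wild-type spread alone. Treatment separated the 6 samples on the first principal component (61.7% of the variance) and replicate 3 on the second (17.6%). Counts without replicate 3 of both treatments are therefore given beside the results. Each gene's values are normalised counts, scaled by DESeq2 size factors, in the order of replicates 1, 2 and 3. Changes are log2 fold changes of NCS against untreated, tested by the quasi-likelihood model of edgeR over all 12 samples with Benjamini-Hochberg adjustment over the 15327 genes, and a gene is called at a false discovery rate (FDR) under 0.05.

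NCS changed 4090 genes, which is 26.7% of those tested, with 2189 higher (14.3%) and 1901 lower (12.4%). The counts of list members given below are to be read against these shares. Most changes were small. Of the called genes, 84.6% moved by less than 0.5 on the log2 scale, and their median size was 0.24. The median over all tested genes was 0.0054. At least a 2-fold change was reached by 80 of the raised genes (0.522% of those tested) and 60 of the lowered ones (0.391%), and at least 4-fold by 12 and 3. Of these 140 genes, 86 had a mean level under 1 log2 CPM. The untreated and treated samples did not overlap for 2748 genes that were higher after NCS (17.9%) and for 2607 that were lower (17.0%). Among the called genes, 91.9% showed no overlap. Without replicate 3 the count of called genes was 5083, and with only the 6 wild-type samples in the fit it was 3088.

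**Figure D1:**
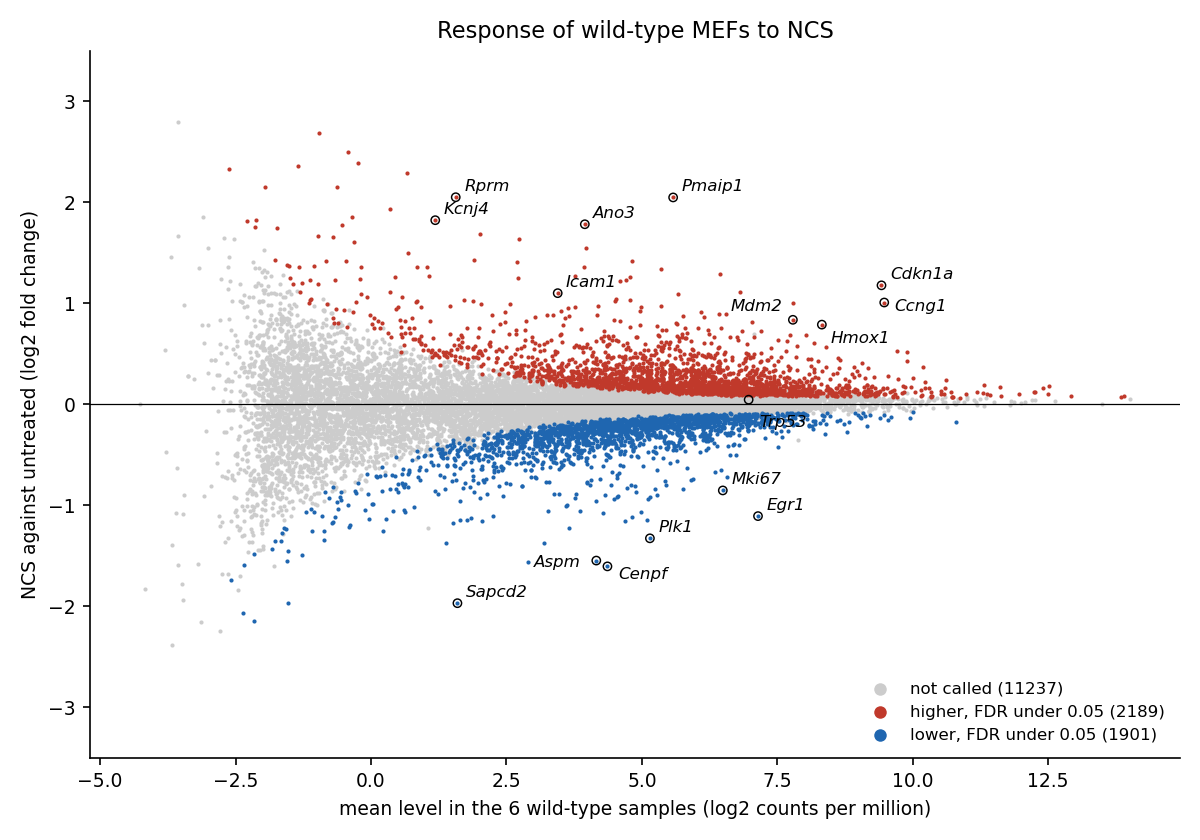
Log2 fold change of NCS against untreated (vertical) against the mean level in the 6 wild-type samples in log2 CPM (horizontal), 1 point per tested gene, with called genes in red (2189 higher) and blue (1901 lower) and named genes circled. The cloud is flat around 0, Cdkn1a and Ccng1 stand out among the most abundant genes, and the lowered genes Plk1, Cenpf and Egr1 lie below -1. The range of the vertical axis leaves out 3 genes.

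Many known p53 targets rose, while p53 mRNA itself was not called. Trp53, which encodes p53, had 4483, 4771 and 4858 normalised counts in the untreated samples and 4805, 4851 and 4942 after NCS (log2 fold change 0.046 ± 0.034 (SE), FDR 0.364), and the groups overlapped. E2f1, the transcription factor altered in the 3KR cells, had 1042, 1099 and 1296 normalised counts in the untreated samples and 1173, 1261 and 1277 after NCS (log2 fold change 0.11 ± 0.062 (SE), FDR 0.211), again with overlap. Its call depended on 1 library: without untreated replicate 3, and without replicate 3 of both treatments, it was called higher, with log2 fold changes of 0.18 to 0.21 and an FDR of 0.00383 to 0.00788, while over all alternatives the FDR ran from 0.00383 to 0.70. Among 12 tested genes of the p53 feedback list, 5 rose and 0 fell, with a median log2 fold change of 0.10. Ccng1, cyclin G1, a p53 target that feeds back on p53 through Mdm2, rose from 19359, 19725 and 18241 to 39766, 38889.5 and 36912 normalised counts, a 2.01-fold change (log2 fold change 1.01 ± 0.033 (SE), FDR 3.91e-16). Mdm2, the ubiquitin ligase that degrades p53, had 6315, 6159 and 6425 normalised counts in the untreated samples and 11539.9, 11665 and 10629.5 after NCS (log2 fold change 0.84 ± 0.037 (SE), FDR 4.62e-14). Trp53inp1, a nuclear protein that promotes the pro-death activity of p53, rose from 3742 ± 106 to 6591 ± 238 (SD, n = 3) normalised counts (log2 fold change 0.81 ± 0.035 (SE), FDR 3.27e-14). In each of these 3 genes all treated samples lay above all untreated ones.

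Genes that restrain the cell cycle under p53 carried the strongest single result. Cdkn1a (ENSMUSG00000023067, chromosome 17, 29090976 to 29100727, plus strand, GRCm38), which encodes the cyclin-dependent kinase inhibitor p21, had the lowest p-value of all genes. It rose from 17086, 17068 and 18008 to 38956, 39929 and 39430.1 normalised counts, a 2.26-fold change (log2 fold change 1.18 ± 0.028 (SE), FDR 1.32e-18). The untreated samples were close to each other and far below every treated one. Of 14 tested genes in this list, 10 rose and 1 fell (median 0.37). Rprm, reprimo, which holds cells in G2, had the largest rise of the genes named by size, from 53.8, 52.8 and 55.9 to 224, 242 and 209 (log2 fold change 2.05 ± 0.14 (SE), FDR 8.31e-11), at a low level. Zfp365, a zinc finger gene under p53 control, rose from 1346, 1374 and 1281 to 2832, 2941 and 2759 normalised counts (log2 fold change 1.09 ± 0.042 (SE), FDR 6.24e-15), and Ddit4l, an inhibitor of mTOR signalling, from 538, 505 and 448 to 1033, 956 and 964 normalised counts (log2 fold change 0.98 ± 0.064 (SE), FDR 5.03e-11). The gene that fell was Gadd45a, a stress gene that p53 is known to raise, with 376, 396 and 365 normalised counts in the untreated samples and 276, 324 and 278 after NCS (log2 fold change -0.38 ± 0.079 (SE), FDR 9.48e-04).

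Genes of apoptosis also rose, with 17 of 23 higher, 1 lower and a median of 0.51. Pmaip1, which encodes the BH3-only protein NOXA, rose by almost the same factor as Rprm, from a far higher level. It went from 844, 872 and 968 to 3837, 3753 and 3519.6 normalised counts, a 4.13-fold change (log2 fold change 2.05 ± 0.061 (SE), FDR 9.73e-17). The related BH3-only gene Bbc3, which encodes PUMA, changed less, from 723, 705 and 669 to 953, 1047 and 895 normalised counts (log2 fold change 0.46 ± 0.064 (SE), FDR 7.28e-06). Bax, the pore-forming effector, rose from 5923, 5919.5 and 6014 to 8160.3, 8073 and 7899 normalised counts (log2 fold change 0.43 ± 0.031 (SE), FDR 1.88e-10). Of the death receptors, Fas rose from 363, 368 and 285 to 693, 672 and 611 normalised counts (log2 fold change 0.95 ± 0.093 (SE), FDR 4.14e-08) and Eda2r, the receptor for ectodysplasin A2, from 2282, 2134 and 1948 to 5448, 5256 and 4899 normalised counts (log2 fold change 1.29 ± 0.05 (SE), FDR 6.24e-15). Ei24, a protein of the endoplasmic reticulum that p53 induces, rose from 2927, 2800.0 and 3041 to 6389, 6418 and 6253 normalised counts (log2 fold change 1.12 ± 0.039 (SE), FDR 1.24e-15). Downstream of the pore, Apaf1, the scaffold of the apoptosome, rose from 2591, 2475 and 2783 to 4951, 4894 and 4783 normalised counts (log2 fold change 0.89 ± 0.038 (SE), FDR 3.31e-14). Untreated and treated samples did not overlap in any of these 7 genes. The member that fell was Bid, a BH3-only gene, from 892 ± 10.2 to 779.5 ± 25.8 (SD, n = 3) (log2 fold change -0.20 ± 0.053 (SE), FDR 0.0068).

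Targets of p53 in repair and metabolism split by gene. Of 33 tested, 18 rose and 4 fell (median 0.33). Polk, a translesion DNA polymerase, rose from 1118, 1104 and 1130.2 to 2335, 2256 and 2012 normalised counts (log2 fold change 0.97 ± 0.054 (SE), FDR 3.01e-12). Dcxr, a sugar reductase, rose from 675 ± 38.8 to 1617 ± 79.2 (SD, n = 3) (log2 fold change 1.26 ± 0.055 (SE), FDR 3.74e-14). Slc19a2, the thiamine transporter, rose from 1995 ± 86.6 to 3650.1 ± 178 (SD, n = 3) (log2 fold change 0.87 ± 0.043 (SE), FDR 3.89e-13). Sesn1, sestrin 1, fell from 541 ± 31.6 to 429.8 ± 22.3 (SD, n = 3) (log2 fold change -0.34 ± 0.07 (SE), FDR 7.38e-04). Polh, another translesion polymerase, fell from 708 ± 24.2 to 585 ± 40.3 (SD, n = 3) (log2 fold change -0.28 ± 0.062 (SE), FDR 0.00142). The lowered count was 2 without untreated replicate 3 or NCS replicate 1, and that of the apoptosis list was 2 without untreated replicate 2. Across the 4 p53 lists, without replicate 3 the counts of higher and lower genes were 6 and 0, 11 and 2, 18 and 1, and 20 and 4, in the order given here. These lists were written from known p53 targets with earlier results of these data in view, so the direction is no independent evidence of p53 activity.

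**Figure D2:**
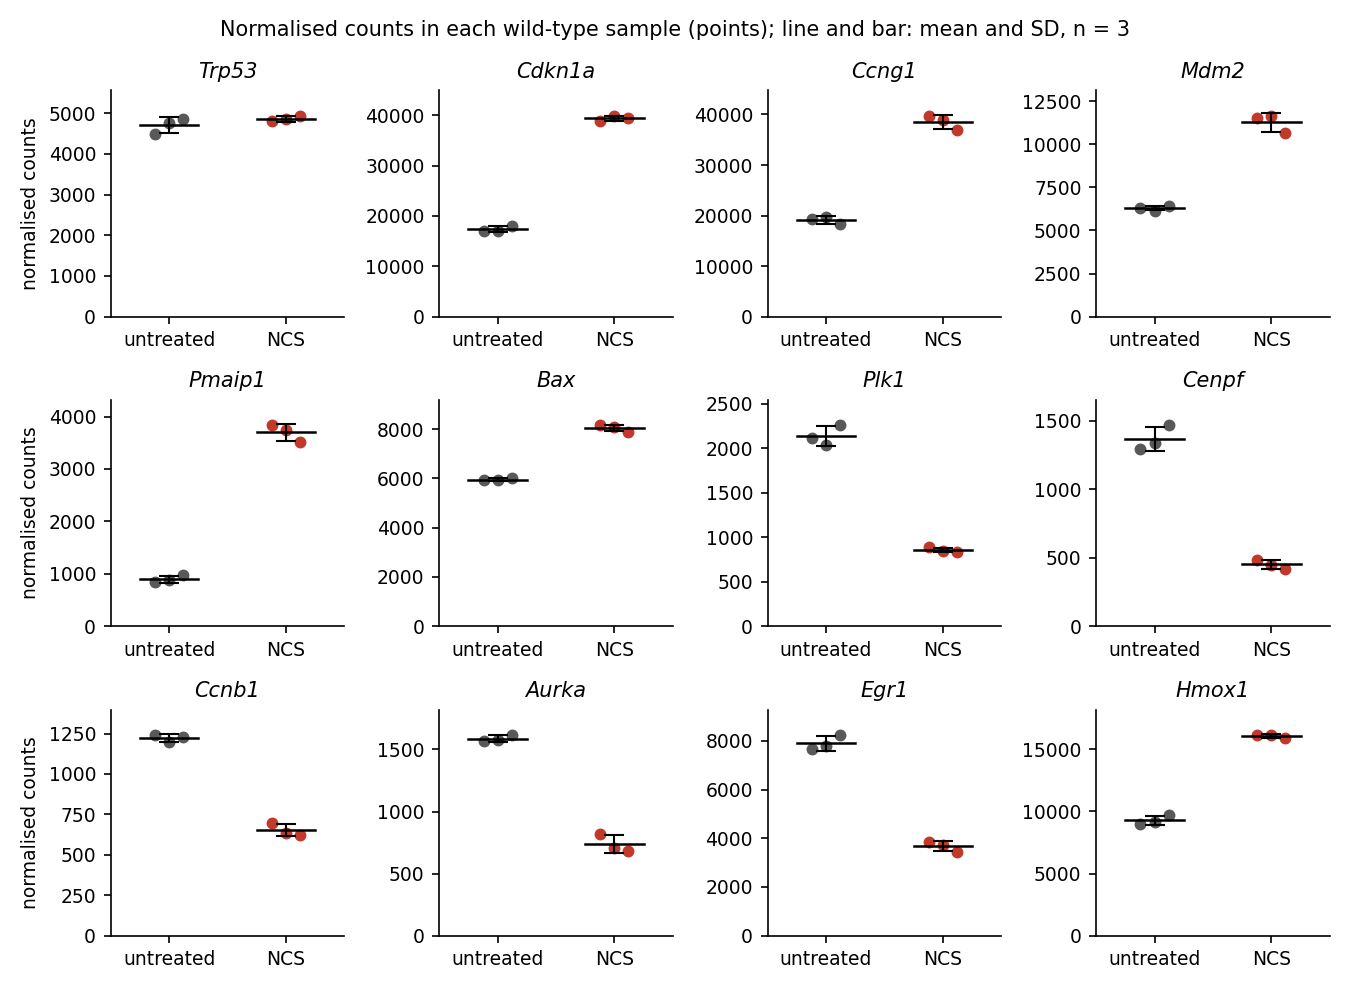
Normalised counts of 12 genes in each of the 6 wild-type samples (points, untreated in grey and NCS in red), with the mean and SD of 3 samples as line and bar and every vertical axis starting at 0. Only Trp53 shows overlapping groups, while Cdkn1a, Ccng1, Mdm2, Pmaip1, Bax and Hmox1 lie higher and Plk1, Cenpf, Ccnb1, Aurka and Egr1 lower in all treated samples.

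Promoter sequences of 42 of the 50 raised p53-list genes were found in the RefSeq table (GRCm38.p6, 250 bases before to 50 after each start), whereas the authors' counts were made on the older mm9 build. Searched on both strands, the p53 half-site consensus was in 12 of their 57 promoters (21.1%), against 7.08% of the 14233 promoters of tested genes and 8.36% of all 32851 in the table. Among the 50 raised genes of lowest p-value the share was 21.2% (11 of 52). The windows below are of genes chosen among those whose promoter held a half-site, and other genes with a match are not printed. The half-site is in capitals with 10 flanking bases on each side, written 5′ to 3′ on the strand of the gene. A match is a run of letters, not a shown binding site.
Cdkn1a: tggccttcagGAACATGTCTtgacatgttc
Ccng1: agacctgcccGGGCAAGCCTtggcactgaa
Mdm2: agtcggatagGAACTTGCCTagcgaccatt
Bax: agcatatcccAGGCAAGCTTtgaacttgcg
Ei24: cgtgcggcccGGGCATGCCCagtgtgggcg
Polk: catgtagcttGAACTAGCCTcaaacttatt
They lie at chr17:29090918-29090947 (plus strand), chr11:40755452-40755481, chr10:117710925-117710954, chr7:45467080-45467109, chr9:36797325-36797354 and chr13:96519399-96519428 (minus strand), all in the 250 bases before an annotated start. The Cdkn1a promoter held a second half-site further from the start, not printed.

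Mitotic genes fell together, with the largest share of members called in 1 direction of all lists. Of 60 tested genes of the G2/M transition and mitosis, 55 fell, 2 rose and 3 were not called. The median log2 fold change was -0.68, and 9 members fell by at least 2-fold. Without replicate 3, 56 fell and 2 rose, and with only the 6 wild-type samples 55 and 2. Plk1 (ENSMUSG00000030867, chromosome 7, 122159439 to 122169873, plus strand, GRCm38), the polo-like kinase that drives entry into mitosis, had the lowest p-value of any lowered gene. It fell from 2120.0, 2032 and 2260.3 to 885, 841 and 838 normalised counts, to 0.399 of the untreated level (log2 fold change -1.33 ± 0.048 (SE), FDR 2.08e-15). All treated samples were far below every untreated one. Reads of an antisense gene, Gm44985, overlap an exon of Plk1 and cannot be told apart from it if the counting ignored strand, which is not given in the sources used here.

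The genes that fell included those of kinetochores, the spindle checkpoint, motors and mitotic kinases. Cenpf, a kinetochore protein of late G2, fell from 1293, 1340.1 and 1468 to 486, 446 and 419 normalised counts (log2 fold change -1.60 ± 0.064 (SE), FDR 8.35e-15). Bub1b, the spindle checkpoint kinase BUBR1, fell from 2042, 1919 and 1857 to 885, 833 and 916 normalised counts (log2 fold change -1.15 ± 0.047 (SE), FDR 1.24e-14). Cdc20, the activator of the anaphase-promoting complex, fell less, from 3045, 3023 and 3008 to 1808, 1866 and 1779 normalised counts (log2 fold change -0.74 ± 0.037 (SE), FDR 4.41e-13). Among kinesin motors, Kif2c, which takes microtubules apart at centromeres, fell from 1414, 1453 and 1511 to 655, 685 and 625 normalised counts (log2 fold change -1.16 ± 0.051 (SE), FDR 5.16e-14), Kif11, which pushes spindle poles apart, from 1836, 1818 and 1778 to 946, 935 and 961 normalised counts (log2 fold change -0.94 ± 0.043 (SE), FDR 7.67e-14), and Kif23 of the central spindle from 1653, 1708 and 1873 to 801, 829 and 866 normalised counts (log2 fold change -1.07 ± 0.052 (SE), FDR 3.21e-13). Aurka, the kinase of spindle poles, fell from 1567, 1578 and 1619.7 to 818, 706 and 686 normalised counts (log2 fold change -1.11 ± 0.059 (SE), FDR 1.16e-12), though Aurka and Cdc20 were chosen after their values were seen. Ccnb1, cyclin B1, the partner of the mitotic kinase CDK1, fell from 1244, 1197 and 1228 to 696, 638 and 624 normalised counts (log2 fold change -0.91 ± 0.057 (SE), FDR 2.33e-11). Mki67, the proliferation antigen Ki-67, fell from 4614 ± 241 to 2561 ± 55.7 (SD, n = 3) (log2 fold change -0.85 ± 0.039 (SE), FDR 7.67e-14). In all of these genes the groups were fully separated.

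Not every gene of the list fell. Ckap2, a spindle protein, rose from 1247, 1265 and 1106 to 2029.6, 1978 and 1796 normalised counts (log2 fold change 0.68 ± 0.052 (SE), FDR 8.04e-10), and Psrc1, a microtubule-binding protein that p53 can induce, rose from 2835, 2808 and 2967 to 3656, 3761 and 3773 normalised counts (log2 fold change 0.37 ± 0.036 (SE), FDR 2.87e-08). Both were higher in all treated samples. Outside the list, Sapcd2, a protein that orients spindles, fell the most of the lowered genes named here, from 229, 222 and 218 to 66.6, 49.8 and 55.7 normalised counts (log2 fold change -1.97 ± 0.12 (SE), FDR 2.33e-11). Aspm, which focuses spindle poles, fell from 1153, 1091 and 1239.8 to 437, 393 and 366 normalised counts (log2 fold change -1.55 ± 0.067 (SE), FDR 3.74e-14), Kif14, a kinesin of the midbody, from 559 ± 3.32 to 217 ± 15.4 (SD, n = 3) (log2 fold change -1.38 ± 0.076 (SE), FDR 2.48e-12), and Pif1, a DNA helicase, from 486 ± 24.0 to 165 ± 12 (SD, n = 3) (log2 fold change -1.56 ± 0.09 (SE), FDR 5.02e-12).

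The promoters of the lowered mitotic genes often held 2 short motifs. The cell cycle homology region (TTTGAA or TTCGAA, on either strand) was in 38 of 49 promoters of 45 matched genes (77.6%), against 14.0% of the promoters of tested genes and 19.2% of all in the table. The CCAAT box (CCAAT, either strand) was in 40 of the 49 (81.6%), against 37.3% and 37.4%. For the 50 lowered genes of lowest p-value, which share members with the list, both motifs were in 68.9% of 45 promoters. The homology region was in 7.69% of 52 promoters for the 50 raised genes of lowest p-value. Both raised genes of the mitotic list, Ckap2 and Psrc1, also held both motifs, in 3 of 3 promoters. The windows below are of lowered mitotic genes chosen among those whose promoter held the homology region. The motif is in capitals (TTCAAA is TTTGAA on the other strand) with, where the promoter window allowed, 10 flanking bases.
Plk1: cagcgccgcgTTTGAAttcggggagg
Cenpf: cggcgggcagTTTGAAtcgctcgtgc
Bub1b: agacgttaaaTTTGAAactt
Kif2c: aggctgctctTTCAAAcctgagtaat
Kif11: gtctccatttTTCAAAattgaggcgc
Kif23: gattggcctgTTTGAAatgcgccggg
Cdc20: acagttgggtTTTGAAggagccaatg
Aurka: aaggagaaccTTTGAAttgtaacggc
In GRCm38.p6 these are chr7:122159455-122159480, chr2:118598241-118598260 and chr19:37376353-37376378 on the plus strand and chr1:189688069-189688094, chr4:117178860-117178885, chr9:61946782-61946807, chr4:118437346-118437371 and chr2:172370523-172370548 on the minus strand. The motif began within 40 bases of an annotated start in 7 of the 8 windows shown. The Bub1b promoter also held a second match, at -188 bases from the start, not printed.

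**Figure D3:**
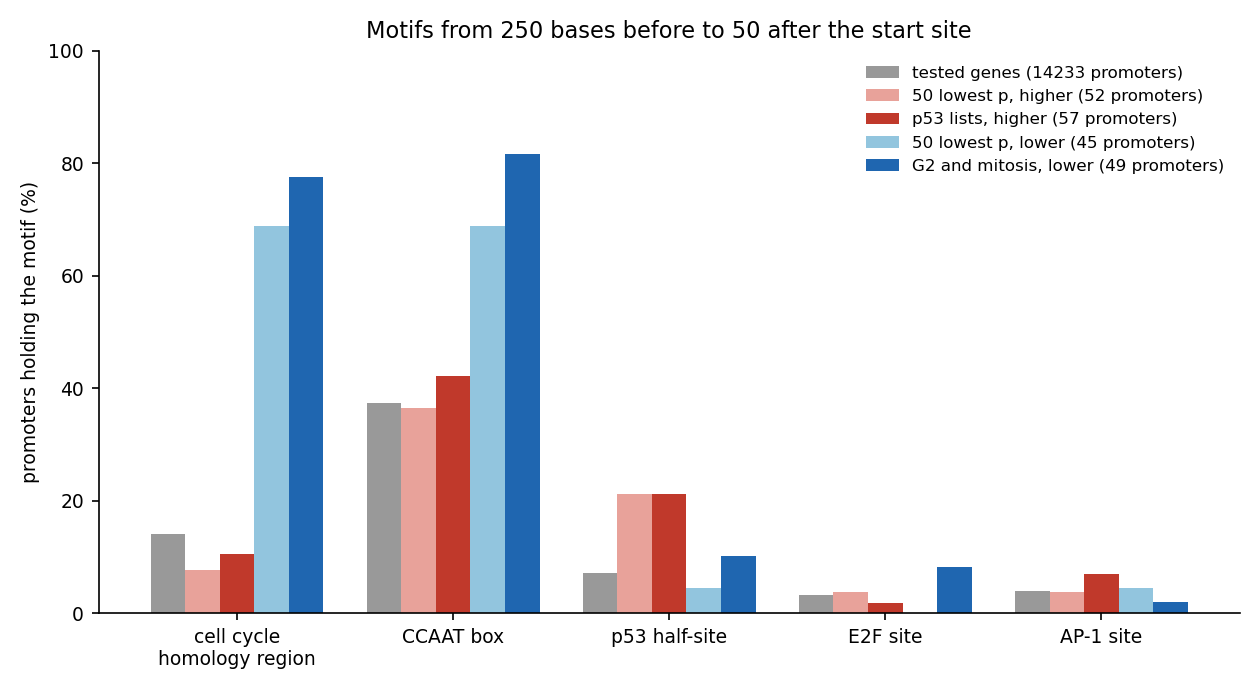
Percent of promoters that hold each of 5 motifs (bars), for the 14233 promoters of tested genes and for 4 sets of genes changed by NCS. The cell cycle homology region is in 77.6% of promoters of lowered mitotic genes against 14.0% of tested genes, and the p53 half-site is in 21.1% and 21.2% of the 2 raised sets against 7.08%.

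DNA replication genes did not follow the mitotic genes. Of 40 tested, 5 rose (12.5%), 4 fell (10.0%) and 31 were not called, with a median of 0.00073. These shares were near the 14.3% higher and 12.4% lower over all tested genes. Ccna2, cyclin A2, which acts in both S phase and G2, fell from 2626, 2769 and 2845 to 1619.6, 1529.5 and 1481 normalised counts (log2 fold change -0.83 ± 0.043 (SE), FDR 6.06e-13). Rrm2, the small subunit of ribonucleotide reductase, rose from 3747, 3782 and 3702 to 4546, 4960.1 and 4311 normalised counts (log2 fold change 0.30 ± 0.041 (SE), FDR 7.83e-06). Mcm7, a subunit of the replicative helicase, rose from 2359 ± 90.5 to 2686 ± 58.4 (SD, n = 3) (log2 fold change 0.18 ± 0.037 (SE), FDR 5.96e-04), and Pold1, the catalytic subunit of DNA polymerase delta, fell from 897 ± 45.3 to 710.1 ± 50.1 (SD, n = 3) (log2 fold change -0.34 ± 0.066 (SE), FDR 3.95e-04). The raised count was 9 without replicate 3 and 2 without NCS replicate 2. It was 3 without untreated replicate 1, without untreated replicate 2 and with only the 6 wild-type samples. The lowered count was 2 without untreated replicate 3 and with the 6 samples.

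**Figure D4:**
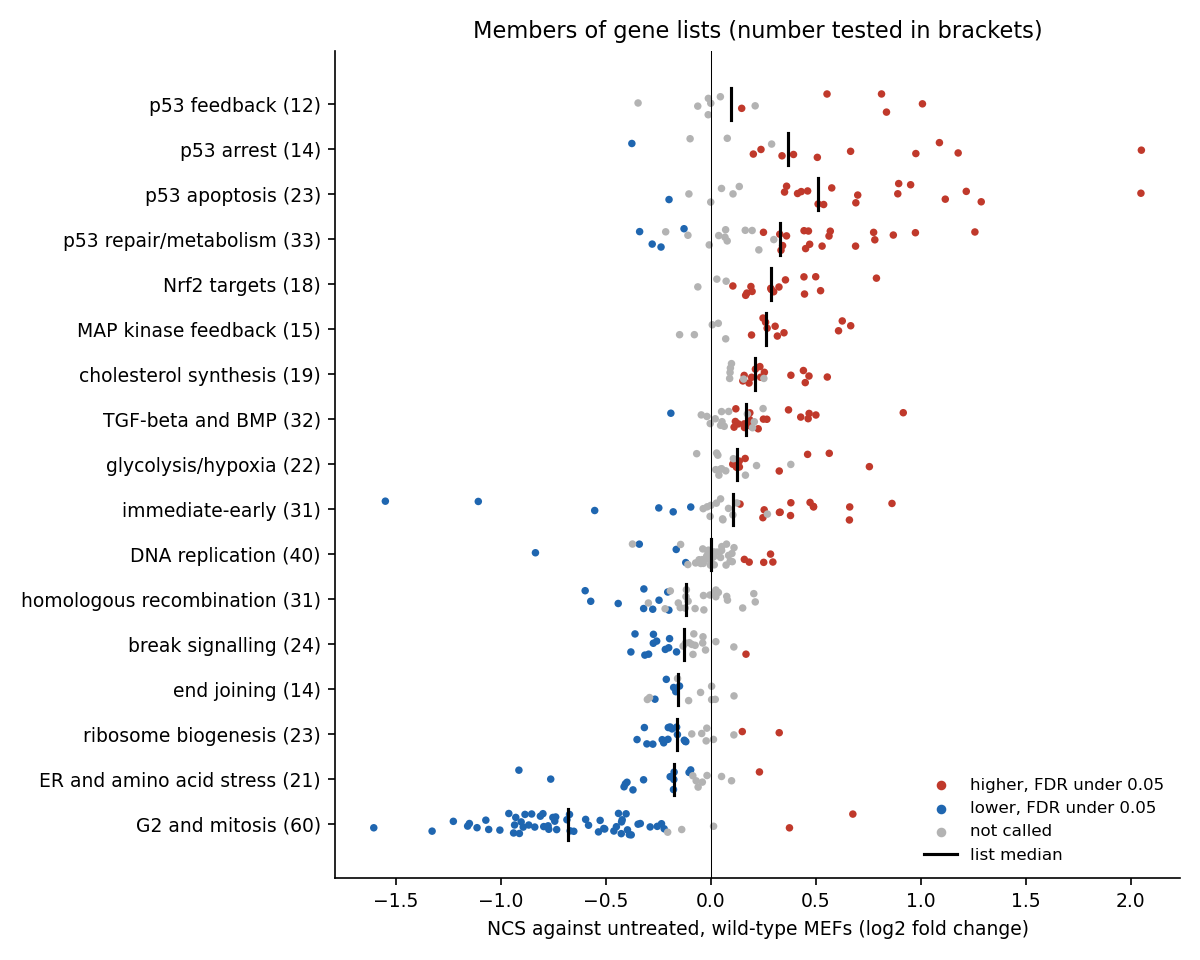
Log2 fold changes of NCS against untreated for the tested members of 17 lists (points, red and blue where called higher and lower, grey where not), with each list's median as a black line. The G2 and mitosis list lies almost wholly below 0 around its median of -0.68, the replication list is centred on 0, and the p53, Nrf2 and cholesterol lists lie mostly above 0.

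Of 24 break-signalling genes, 11 fell (45.8%), 1 rose (4.17%) and 12 were not called, with a median of -0.13. Over all tested genes 12.4% fell and 14.3% rose. H2afx, the histone variant that is phosphorylated at breaks, fell from 1804, 1900.1 and 1901 to 1438, 1473 and 1402 normalised counts (log2 fold change -0.38 ± 0.047 (SE), FDR 1.35e-06), and Mdc1, which binds it, from 1814 ± 10.5 to 1464 ± 45.5 (SD, n = 3) (log2 fold change -0.31 ± 0.042 (SE), FDR 4.09e-06). Rif1, which steers repair away from end resection, fell from 1229 ± 22.9 to 1004 ± 29.5 (SD, n = 3) (log2 fold change -0.30 ± 0.047 (SE), FDR 4.44e-05). Atm, the kinase that breaks activate, had 961, 1016 and 1158 normalised counts in the untreated samples and 958, 843 and 901 after NCS (log2 fold change -0.22 ± 0.065 (SE), FDR 0.016). Its groups were only just separated, and the FDR was 0.088 to 0.10 in 3 alternatives, namely without untreated replicate 3, without NCS replicate 2 and without replicate 3 of both treatments. Over all its alternatives the direction stayed lower. Of 14 end-joining genes 5 fell (35.7%) and 0 rose. Parp1, the poly(ADP-ribose) polymerase of DNA breaks, had the lowest p-value of these and fell from 2746 ± 41.1 to 2453 ± 10.2 (SD, n = 3) (log2 fold change -0.17 ± 0.035 (SE), FDR 8.42e-04). This count was 3 without untreated replicate 2 or NCS replicate 2, and 1 gene rose without untreated replicate 3 or NCS replicate 2 and with replicates as a block. Of 31 genes of homologous recombination and the Fanconi pathway, 9 fell and 0 rose (median -0.12), with 3 lower without NCS replicate 2 and 1 higher without untreated replicate 1, NCS replicate 3 or both libraries of replicate 3 and with replicates as a block. Fancb, a subunit of the Fanconi core complex, fell from 327 ± 8.39 to 221 ± 25.5 (SD, n = 3) (log2 fold change -0.57 ± 0.092 (SE), FDR 4.56e-05).

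Genes of growth-factor signalling moved in both directions. Egr1 (ENSMUSG00000038418, chromosome 18, 34859823 to 34864984, plus strand, GRCm38), a zinc finger factor that serum and stress usually induce at once, fell from 7666, 7801 and 8258 to 3860.3, 3734 and 3448 normalised counts (log2 fold change -1.11 ± 0.04 (SE), FDR 2.08e-15), and all treated samples were far below the untreated ones. Fos, the AP-1 subunit, fell from 911, 879.6 and 989 to 675, 612 and 613 normalised counts (log2 fold change -0.55 ± 0.062 (SE), FDR 3.36e-07), and Myc, the growth regulator, from 2953, 2843 and 3198 to 2693, 2579.6 and 2693 normalised counts (log2 fold change -0.18 ± 0.042 (SE), FDR 0.00222). Over the whole immediate-early list of 31 genes, 13 rose (41.9%) and 6 fell (19.4%), against 14.3% and 12.4% over all tested genes. Klf10, a repressor that TGF-beta induces, rose from 2564, 2406 and 2345 to 3854, 3956 and 3801 normalised counts (log2 fold change 0.66 ± 0.042 (SE), FDR 2.96e-11), and Klf4, a factor of cell cycle exit, from 2519 ± 66.4 to 3506 ± 114 (SD, n = 3) (log2 fold change 0.47 ± 0.037 (SE), FDR 8.56e-10). Feedback inhibitors of the ERK pathway rose in 10 of 15 cases and fell in 0, with a median of 0.26. Spred2, which blocks RAF activation, rose from 3087, 3263 and 3493 to 5158, 4965 and 5529 normalised counts (log2 fold change 0.67 ± 0.043 (SE), FDR 2.98e-11), Errfi1, which inhibits the EGF receptor, from 8929 ± 1186 to 13643 ± 185 (SD, n = 3) (log2 fold change 0.61 ± 0.054 (SE), FDR 9.25e-09), and Dusp4, an ERK phosphatase, from 1842 ± 220.4 to 2849 ± 59.8 (SD, n = 3) (log2 fold change 0.63 ± 0.056 (SE), FDR 1.05e-08). In untreated replicate 3 the median of this list was 0.20 above that of replicates 1 and 2 on the log2 scale, against 0.029 in treated replicate 3. Without NCS replicate 3, without replicate 3 of both treatments and with replicates as a block, 1 member fell.

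Of 21 NF-kappaB genes, 7 rose (33.3%) and 1 fell (4.76%), against 14.3% and 12.4% over all tested genes, with a median of 0.0017. The raised count was 3 to 4 without NCS replicate 2, NCS replicate 3 or untreated replicate 2 and 3 with the 6 wild-type samples. Icam1, the leukocyte adhesion molecule, rose from 283, 305 and 259 to 577, 624 and 621 normalised counts (log2 fold change 1.1 ± 0.072 (SE), FDR 3.89e-11), with no overlap. Ptgs2, cyclooxygenase 2, rose from 27170.2, 27952 and 35689.6 to 42833, 42455 and 44755 normalised counts (log2 fold change 0.51 ± 0.06 (SE), FDR 5.95e-07), from an already high level. Birc2, an inhibitor of apoptosis in the NF-kappaB pathway, fell from 956 ± 69.9 to 700.0 ± 50.7 (SD, n = 3) (log2 fold change -0.46 ± 0.062 (SE), FDR 5.32e-06). Among 24 tested cytokine genes, 4 rose (16.7%) and 2 fell (8.33%), near the 14.3% and 12.4% over all tested genes. Lif, leukemia inhibitory factor, rose from 666, 638 and 778 to 1219.8, 1191 and 1292 normalised counts (log2 fold change 0.83 ± 0.063 (SE), FDR 6.75e-10), Il11, interleukin 11, from 1603, 1743 and 1780.1 to 2672, 2705 and 2990.2 normalised counts (log2 fold change 0.70 ± 0.052 (SE), FDR 3.85e-10), and Csf1, the macrophage growth factor, from 31199 ± 2371 to 42032 ± 2246 (SD, n = 3) (log2 fold change 0.43 ± 0.039 (SE), FDR 1.53e-08). Il1rn, the interleukin 1 receptor antagonist, fell from 7899, 8208 and 7923 to 6037, 6059 and 5889 normalised counts (log2 fold change -0.42 ± 0.033 (SE), FDR 8.87e-10). Of 38 interferon-stimulated genes 4 rose (10.5%) and 2 fell (5.26%), against 14.3% and 12.4% over all tested genes, with 1 to 2 higher in each of the fits with only the 6 samples and without NCS replicate 1, NCS replicate 2 or untreated replicate 2 (1 lower without replicate 3 and 4 lower with replicates as a block). Eif2ak2, the kinase PKR, rose from 1172 ± 115 to 1486 ± 51.3 (SD, n = 3) (log2 fold change 0.34 ± 0.056 (SE), FDR 6.12e-05).

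Antioxidant and sterol genes rose. Of 18 targets of the antioxidant factor Nrf2, 15 rose and 0 fell, with a median of 0.29. Hmox1, heme oxygenase 1, rose from 8992, 9147 and 9691 to 16172, 16124 and 15902 normalised counts (log2 fold change 0.79 ± 0.032 (SE), FDR 1.24e-14). Txnrd1, thioredoxin reductase 1, rose from 26215, 26099 and 27509.5 to 37743, 38122 and 39127 normalised counts (log2 fold change 0.52 ± 0.027 (SE), FDR 6.07e-13), and Gclc, the rate-limiting subunit of glutathione synthesis, from 2926 ± 79.5 to 4147 ± 38.7 (SD, n = 3) (log2 fold change 0.50 ± 0.033 (SE), FDR 5.44e-11). The groups did not overlap for these 3 genes. Of 19 genes of cholesterol synthesis and uptake, 13 rose and 0 fell (median 0.21), and every member had a positive fold change, the smallest being 0.090. Insig1, which holds the sterol sensor in the endoplasmic reticulum, rose from 2567, 2598 and 2842 to 4014, 4063 and 3705 normalised counts (log2 fold change 0.55 ± 0.043 (SE), FDR 9.26e-10). Msmo1, a sterol demethylase, rose from 3926 ± 50.1 to 5375 ± 168 (SD, n = 3) (log2 fold change 0.45 ± 0.033 (SE), FDR 3.05e-10). Of 22 genes of glycolysis and the hypoxia response 10 rose (45.5%) and 0 fell, against 14.3% and 12.4% over all tested genes. Ddit4, an mTOR inhibitor that p53 also induces, rose from 2615, 2670.1 and 2508 to 4366, 4416 and 4407 normalised counts (log2 fold change 0.76 ± 0.034 (SE), FDR 5.17e-14), and Vegfa, the endothelial growth factor, from 12775 ± 552 to 17633 ± 1227 (SD, n = 3) (log2 fold change 0.46 ± 0.038 (SE), FDR 3.04e-09).

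In the other direction, 13 of 21 genes of the amino acid and unfolded protein responses fell and 1 rose (2 without replicate 3 or with replicates as a block), with a median of -0.18. Trib3, a pseudokinase under the stress factor ATF4, fell from 1943, 1877 and 1784 to 928, 936 and 1123 normalised counts (log2 fold change -0.91 ± 0.056 (SE), FDR 1.65e-11), and Chac1, which degrades glutathione, from 2143, 2101 and 2196 to 1171, 1259 and 1377 normalised counts (log2 fold change -0.76 ± 0.048 (SE), FDR 2.28e-11). Herpud1, of the degradation machinery of the endoplasmic reticulum, fell from 4858 ± 73.1 to 3676 ± 171 (SD, n = 3) (log2 fold change -0.41 ± 0.034 (SE), FDR 3.64e-09). Ern1, the stress sensor IRE1, was the gene that rose, from 1958 ± 125 to 2304 ± 141 (SD, n = 3) (log2 fold change 0.23 ± 0.047 (SE), FDR 6.65e-04). Of 23 ribosome biogenesis genes, 15 fell and 2 rose (median -0.16), with 1 higher without NCS replicate 1 or 2. Nolc1, a nucleolar chaperone, fell from 4197 ± 34.7 to 3476 ± 68.0 (SD, n = 3) (log2 fold change -0.28 ± 0.032 (SE), FDR 5.71e-07), while Utp20, of the small-subunit processome, rose from 3783 ± 201 to 4755 ± 249 (SD, n = 3) (log2 fold change 0.33 ± 0.041 (SE), FDR 1.62e-06). Of 13 heat shock genes 3 rose (23.1%) and 2 fell (15.4%), against 14.3% and 12.4% over all tested genes, and 4 fell without replicate 3. Dnajb1, a co-chaperone, rose from 2368 ± 21.7 to 2946 ± 39.4 (SD, n = 3) (log2 fold change 0.31 ± 0.036 (SE), FDR 4.85e-07). Of 13 messenger RNAs encoded by mitochondrial DNA 1 rose (7.69%) and 0 fell, against 14.3% and 12.4% over all tested genes. The RNA called was mt-Co3, a subunit of cytochrome oxidase, from 117900.0 ± 2153 to 125121 ± 1911 (SD, n = 3) (log2 fold change 0.082 ± 0.02 (SE), FDR 0.00332). Its FDR was 0.068 with only the 6 wild-type samples, and 2 of these RNAs were called higher without untreated replicate 3 and 3 with replicates as a block.

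Among developmental pathways, TGF-beta and BMP genes moved most often, with 18 of 32 higher, 1 lower and a median of 0.17. Inhbb, an activin subunit, rose from 1858, 1773 and 2025 to 3534, 3619.6 and 3546 normalised counts (log2 fold change 0.92 ± 0.045 (SE), FDR 4.02e-13). Tgif1, a repressor of SMAD transcription, rose from 3277 ± 117 to 4544 ± 26.4 (SD, n = 3) (log2 fold change 0.47 ± 0.035 (SE), FDR 4.35e-10), and Id1, a target of BMP signalling, from 3913 ± 14.6 to 5278 ± 199 (SD, n = 3) (log2 fold change 0.43 ± 0.034 (SE), FDR 1.23e-09). Bmp4, a BMP ligand, fell from 1114 ± 64.3 to 979 ± 14.4 (SD, n = 3) (log2 fold change -0.19 ± 0.055 (SE), FDR 0.0124), a call lost without replicate 3 of both treatments (FDR 0.056). Of 17 Notch genes, 5 rose (29.4%) and 2 fell (11.8%), against 14.3% and 12.4% over all tested genes. The raised count was 3 without untreated replicate 1, untreated replicate 2 or NCS replicate 3. The lowered count was 1 without untreated replicate 1 or NCS replicate 2. Among the receptors, Notch3 rose from 909.6, 858 and 819 to 1636, 1624 and 1664 normalised counts (log2 fold change 0.92 ± 0.048 (SE), FDR 8.32e-13) and Notch1 from 2820.1 ± 210.5 to 3812 ± 150.2 (SD, n = 3) (log2 fold change 0.43 ± 0.044 (SE), FDR 7.11e-08). Of 31 Wnt genes 4 rose and 4 fell (7 rose without replicate 3), shares of 12.9% each, near the 14.3% and 12.4% over all tested genes. Wnt11, a ligand, rose from 489.8 ± 26.4 to 727 ± 48.3 (SD, n = 3) (log2 fold change 0.56 ± 0.064 (SE), FDR 4.69e-07), and Lgr5, a receptor for R-spondins, fell from 316 ± 18.8 to 212 ± 33.0 (SD, n = 3) (log2 fold change -0.58 ± 0.085 (SE), FDR 1.49e-05). Of 11 Hedgehog genes 0 rose and 2 fell (18.2%), against 14.3% and 12.4% over all tested genes. The lowered count was 1 without NCS replicate 1, and 5 with replicates as a block. Of 17 YAP and TEAD targets 4 rose (23.5%) and 2 fell (11.8%), against the same shares over all tested genes. The raised count was 7 without untreated replicate 3. The lowered count was 1 without NCS replicate 1, 4 without NCS replicate 3 or both libraries of replicate 3, and 5 with replicates as a block. Nuak2, a kinase of this group, rose from 1406 ± 106 to 2157 ± 64.7 (SD, n = 3) (log2 fold change 0.62 ± 0.049 (SE), FDR 1.16e-09).

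Of 32 matrix genes, 14 rose (43.8%) and 1 fell (3.12%), against 14.3% and 12.4% over all tested genes, with a median of 0.066. This count depended on the samples used, with 26 higher without replicate 3 and 8 with only the 6 wild-type samples, and 2 fell without NCS replicate 3 or both libraries of replicate 3. Vcan, the proteoglycan versican, rose from 15671, 15657 and 17176 to 21415, 21136 and 20278 normalised counts (log2 fold change 0.37 ± 0.034 (SE), FDR 1.74e-08), and Col15a1, a basement membrane collagen, fell from 3659 ± 226 to 2762 ± 137 (SD, n = 3) (log2 fold change -0.41 ± 0.042 (SE), FDR 8.90e-08). Of 19 contractile genes, 1 rose (5.26%) and 3 fell (15.8%), against 14.3% and 12.4% over all tested genes. The raised count was 8 without replicate 3, 4 without untreated replicate 3, 2 without NCS replicate 3 and 4 with replicates as a block. It was 0 without any 1 of the other libraries, while 1 fell without untreated replicate 3. Of 20 clock genes, 7 rose and 0 fell. Arntl, which encodes the clock activator BMAL1, rose from 1903, 1955 and 2019 to 2574, 2706 and 2917 normalised counts (log2 fold change 0.48 ± 0.05 (SE), FDR 1.22e-07), and Tef, an output factor of the clock, from 1598, 1463 and 1671 to 2463, 2433 and 2433 normalised counts (log2 fold change 0.63 ± 0.045 (SE), FDR 2.71e-10). Of 12 long noncoding RNAs, 1 rose and 1 fell, 8.33% each, against 14.3% and 12.4% over all tested genes. The raised count was 0 without NCS replicate 1, NCS replicate 3 or untreated replicate 2. The lowered count was 3 without NCS replicate 3 or untreated replicate 3 (4 without both, and 2 with replicates as a block). Neat1, the scaffold of paraspeckles, had 13260.3, 13417 and 12332 normalised counts in the untreated samples and 12439, 12249 and 13246 after NCS (log2 fold change -0.045 ± 0.034 (SE), FDR 0.372). It was called lower without untreated replicate 3 and without replicate 3 of both treatments, with an FDR of 7.01e-06 to 0.0329. Of 57 replication-dependent histone genes 39 did not pass the filter. Of the 18 tested 4 rose (22.2%) and 0 fell, against 14.3% and 12.4% over all tested genes. The raised count was 2 with each of the 3 untreated samples or NCS replicate 2 left out, and without replicate 3. These messenger RNAs mostly lack poly(A) tails, which the library kit selects.

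Among the fibroblast markers 5 of 14 rose (35.7%) and 2 fell (14.3%), by at most 0.19 on the log2 scale. Over all tested genes 14.3% rose and 12.4% fell. With replicates as a block 8 rose and 4 fell, and without replicate 3 of both treatments 8 rose. Of 18 tested macrophage markers 2 rose (11.1%) and 0 fell, against 14.3% and 12.4% over all tested genes. By edgeR, 0 of 14 Schwann cell, 5 epithelial and 9 muscle markers were called (1 Schwann cell marker fell without NCS replicate 1 or untreated replicate 3). The macrophage markers called were Laptm5, a lysosomal protein, from 314 ± 6.78 to 367 ± 9.36 (SD, n = 3) (log2 fold change 0.22 ± 0.073 (SE), FDR 0.0265), and Mrc1, the mannose receptor, from 290.1 ± 20.9 to 343 ± 17.1 (SD, n = 3) (log2 fold change 0.23 ± 0.082 (SE), FDR 0.0372). Both calls were lost in 7 alternatives each, and without NCS replicate 2 or untreated replicate 2 the count was 0, without NCS replicate 1, untreated replicate 1 or untreated replicate 3 it was 1, and without NCS replicate 3 it was 4. Of 9 endothelial markers 1 rose (11.1%) and 0 fell, against 14.3% and 12.4% over all tested genes. The raised count was 2 with replicates as a block. Eng, a TGF-beta co-receptor, rose from 1552 ± 24.6 to 1978 ± 23.3 (SD, n = 3) (log2 fold change 0.35 ± 0.043 (SE), FDR 1.46e-06).

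Over all tested genes, 53 with a symbol and a level of at least 1 log2 CPM changed at least 2-fold without overlap, 30 higher and 23 lower. Of these, 10 and 10 were members of the lists above. Ano3, of the anoctamin family of membrane proteins, rose from 308, 339 and 300.1 to 1092, 1065 and 1109.5 normalised counts (log2 fold change 1.78 ± 0.07 (SE), FDR 7.93e-15). Dapk1, the death-associated protein kinase, rose from 963, 980.0 and 1005 to 2473, 2447 and 2540.4 normalised counts (log2 fold change 1.34 ± 0.049 (SE), FDR 2.08e-15), and Cep170b, a centrosomal protein, from 5772, 5888 and 6189.9 to 11763, 11809 and 12409.7 normalised counts (log2 fold change 1.01 ± 0.035 (SE), FDR 1.24e-15). These 3 genes were among the 10 raised genes of lowest p-value. Kcnj4, an inward-rectifier potassium channel, rose from 57.2, 33.5 and 45.5 to 128, 159 and 203 (log2 fold change 1.82 ± 0.21 (SE), FDR 4.76e-07), and Scn3b, a sodium channel subunit that p53 can induce, from 47.2, 57.8 and 45.5 to 107, 124 and 133 (log2 fold change 1.27 ± 0.18 (SE), FDR 1.27e-05). Tap1, the peptide transporter of antigen presentation, rose from 325, 323 and 398 to 1004, 1046 and 996 (log2 fold change 1.54 ± 0.074 (SE), FDR 2.46e-13), but its exons overlap those of the opposite-strand gene Psmb9. Such overlaps with genes on the other strand were also annotated for Cdkn1a, Cdc20, Ei24, Ano3, Rbm38, Trim7, Ccna2, Mcm7, H2afx, Notch1, Notch3, Icam1, Arntl, Tef, Wnt11, Eng, Col15a1, Eif2ak2, Gadd45a, Bid, Bmp4, Pms1 and Eln, whose counts can hold reads of both if strand was not used. Rbm38, an RNA-binding protein that p53 induces, rose from 85.4 ± 5.15 to 229.7 ± 10.1 (SD, n = 3) (log2 fold change 1.42 ± 0.13 (SE), FDR 1.55e-08), Mybl1, a MYB family factor, from 361 ± 16.8 to 925 ± 76.5 (SD, n = 3) (log2 fold change 1.35 ± 0.074 (SE), FDR 2.15e-12), and Inka2, an inhibitor of the PAK4 kinase, from 655 ± 7.59 to 1759 ± 164 (SD, n = 3) (log2 fold change 1.42 ± 0.061 (SE), FDR 3.74e-14). Trim7, a ubiquitin ligase, rose from 142 ± 25.1 to 446 ± 48.2 (SD, n = 3) (log2 fold change 1.64 ± 0.11 (SE), FDR 1.37e-10), Igsf9b, a synaptic adhesion molecule, from 83.9 ± 10.0 to 272 ± 11.5 (SD, n = 3) (log2 fold change 1.68 ± 0.12 (SE), FDR 2.55e-10), and Plekha7, of adherens junctions, from 47.5 ± 4.35 to 123 ± 8.09 (SD, n = 3) (log2 fold change 1.36 ± 0.18 (SE), FDR 3.24e-06).

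Lowered genes outside the lists had various roles. Depdc1b, a protein of mitotic entry, fell from 158 ± 9.98 to 60.6 ± 1.16 (SD, n = 3) (log2 fold change -1.38 ± 0.14 (SE), FDR 7.24e-08), and Arhgef39, a guanine exchange factor, from 235 ± 2.92 to 106 ± 20.4 (SD, n = 3) (log2 fold change -1.15 ± 0.14 (SE), FDR 8.41e-07). Shank2, a synaptic scaffold, fell from 161 ± 13.7 to 71.5 ± 9.92 (SD, n = 3) (log2 fold change -1.18 ± 0.13 (SE), FDR 2.48e-07), and Phf19, a polycomb partner, from 190.4 ± 6.65 to 86.5 ± 10.8 (SD, n = 3) (log2 fold change -1.14 ± 0.12 (SE), FDR 1.93e-07). Ankle1, an endonuclease, fell from 174 ± 7.34 to 79.1 ± 6.95 (SD, n = 3) (log2 fold change -1.14 ± 0.14 (SE), FDR 8.38e-07), and Pms1, a mismatch repair protein, from 200.1 ± 35.2 to 92.1 ± 11.5 (SD, n = 3) (log2 fold change -1.12 ± 0.14 (SE), FDR 1.60e-06). Adamts1, a secreted metalloprotease, fell less but with a low p-value, from 4619, 4673 and 4669.6 to 2994, 2742 and 2748 normalised counts (log2 fold change -0.72 ± 0.036 (SE), FDR 3.89e-13). Apart from Adamts1, these genes were named under a rule that required separate groups. In Adamts1 too the treated samples lay below the untreated ones.

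Classes of gene span had medians close to 0, and longer genes were called more often in both directions than genes under 10 kb. The median log2 fold change was 0.016 over 4031 genes spanning under 10 kb, -0.0038 over 4607 of 10 to 30 kb, -0.0048 over 4099 of 30 to 100 kb, 0.021 over 1618 of 100 to 300 kb and 0.051 over 439 of 300 kb or more. The share called higher was 11.1% for the shortest class and 17.8% for the longest, and the share called lower 7.76% and 13.4%. The share called also depends on the read counts of the genes, which were not compared between classes. Of 13744 protein-coding genes 2135 rose and 1855 fell, and of 129 long intergenic RNAs 10 and 6. Over all 15327 tested genes these counts were 2189 (14.3%) and 1901 (12.4%).

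The same treatment in 3KR MEFs gave a test of where the wild-type response differed from theirs. The difference of the log2 fold changes (3KR minus wild-type) was called for 572 genes (3.73% of those tested), 285 of them positive and 287 negative. With replicates as a block the count was 1379, without replicate 3 of wild-type MEFs 1842, without untreated replicate 3 1159 and without NCS replicate 1 361. The wild-type libraries held 140 to 151 CPM of the Y-linked gene Ddx3y and the 3KR libraries 0.181 to 0.421 CPM, while Xist, of the inactive X chromosome, was at 0.823 to 1.6 and 815 to 925 CPM. Genotype and sex cannot be told apart. Of the 60 mitotic genes, 31 fell less in 3KR than in wild-type MEFs, and the list median was -0.39 in 3KR against -0.68. Plk1 changed by -0.82 in 3KR against -1.33 in wild-type MEFs (difference 0.51 ± 0.066 (SE), FDR 4.28e-05), and Aurka by -0.60 against -1.11 (difference FDR 3.98e-04).

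Among p53 genes most called differences were larger rises in 3KR MEFs. The difference was called for 3 of 12 feedback, 4 of 14 arrest, 4 of 23 apoptosis and 2 of 33 repair and metabolism genes. Ccng1 rose more in 3KR MEFs, with 1.35 against 1.01 (difference 0.34 ± 0.046 (SE), FDR 5.73e-05). The difference for Pmaip1, 0.30 ± 0.11, was not called (FDR 0.126). For Apaf1 the difference was 0.15 ± 0.054 (FDR 0.148). Cholesterol genes rose less in 3KR MEFs, with the difference called for 6 of 19, all toward a smaller rise. Insig1 changed by 0.021 in 3KR against 0.55 in wild-type MEFs (difference FDR 1.01e-05). The 5 lowest p-values for the difference were those of Egr1, Il1rn, Ccn3, Eln and Neat1. Egr1 changed by -0.24 in 3KR (difference 0.86 ± 0.057 (SE), FDR 4.38e-09), and Il1rn by -1.02 (difference -0.60, FDR 4.81e-08). Ccn3, a matricellular growth regulator, changed by -0.59 in 3KR, where in wild-type MEFs it was not called (0.077, FDR 0.144). Eln, which encodes elastin, changed by -0.65 in 3KR against -0.022, and Neat1 by 0.53 against -0.045.

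**Figure D5:**
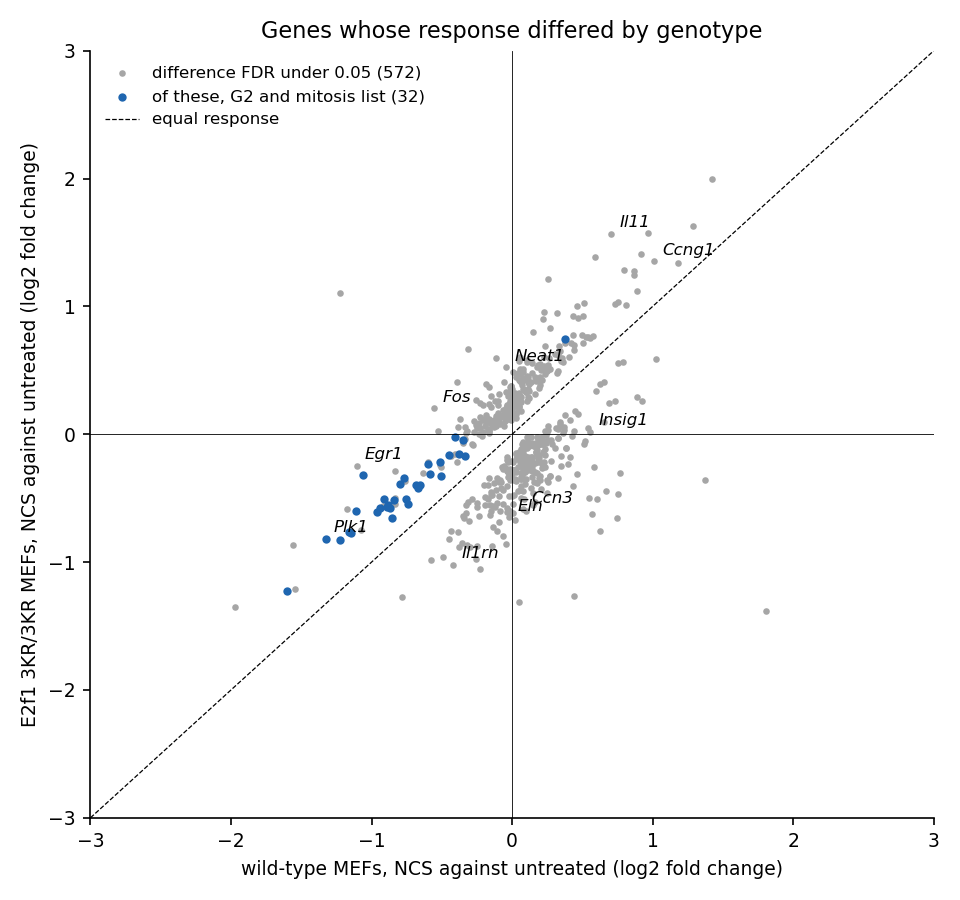
Log2 fold change of NCS against untreated in wild-type (horizontal) and 3KR MEFs (vertical) for the 572 genes whose response differed, with those of the G2 and mitosis list in blue and a dashed line where both responses are equal. The blue points lie in the lower left above the line, a smaller fall in 3KR MEFs, apart from Psrc1. The range of the axes leaves out 1 gene.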

How the data were processed

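Poly(A)-selected stranded libraries of total RNA were sequenced on an Illumina HiSeq 3000. The authors deposited raw read counts per gene, 1 table per sample, made per the labels with TopHat on the mm9 build and HTSeq (versions and strand setting not given in the sources used here). Gene symbols, exon overlaps and positions came from GENCODE M21 (GRCm38) by gene identifier, which matched 32938 of 37991 genes and at least 99.4% of counts, and promoters from RefSeq (GRCm38.p6). No coordinate of one build was joined to another.

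Counts of all 12 samples, of which 6 are wild-type, were filtered with filterByExpr, scaled by TMM and fitted with the quasi-likelihood test of edgeR 4.0.16 in R 4.3.3, with 1 coefficient per group and 2-sided tests at an FDR of 0.05. The difference between genotypes was the interaction contrast. Normalised counts used the size factors of DESeq2 1.42.0, whose Wald test at the same FDR, the test of the study, was an alternative. Alternatives were DESeq2 size factors in edgeR, no filter, a minimum of 10 counts in each sample, the 6 wild-type samples alone, replicate number as a block, each wild-type sample left out in turn, replicate 3 left out of both treatments and, for normalised counts, library totals. The SE of a log2 fold change came from this fit and the SD from the 3 samples of a group, so both hold spread between samples. The floor of 3 counts covers counting error only. The fit was tested on simulated counts of 15099 genes for NCS in wild-type MEFs: it recovered 62% of genes changed 1.25-fold, 74% of 1.5-fold, 80% of 2-fold and 95.9% of 4-fold, and 6.06% of its calls were unchanged genes. Only 49 to 50 genes were changed at each size. Each gene had the spread taken from the fit in all samples, with no shift of replicate 3. Whether these rates hold for the real samples, where replicate 3 stood apart and far more genes were called, was not tested.

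Same-numbered untreated and treated wild-type samples deviated together from their group means, with correlations of 0.141, 0.136 and 0.325 over 11758 genes. The main fit used no pairing. Only the alternative with replicates as a block took the numbers as pairs, in both genotypes. The pairing comes from the data, and replicates 1 and 2 correlated almost as much across numbers (0.127 and 0.133), so these values set only replicate 3 apart. In 3KR MEFs the same correlations were -0.0091, 0.0064 and -0.091.

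Genes were named by rule: the 15 largest changes per direction among called genes of at least 1 log2 CPM without overlap of the groups, the 10 lowest p-values per direction, the 3 lowest per direction in each list, 16 genes of interest whatever their result, and the 5 genes whose genotype difference had the lowest p-value. The members and lists were chosen with earlier results of these data known. A gene without a symbol was counted but not named, and some genes that the rule names are not reported here.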

Additional observations from a re-analysis of the deposited data

Results flagged for a closer look

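Genes named in the report are given here where their response to NCS differed between genotypes, by the interaction contrast of edgeR at an FDR of 0.05. Values are the difference of the log2 fold changes, 3KR minus wild-type MEFs, over 3 samples in each of the 4 groups. Among genes lowered in wild-type MEFs the difference was positive, so that the change in 3KR MEFs was higher, for Egr1 (0.86), Fos (0.76), Pif1 (0.69), Sapcd2 (0.62), Shank2 (0.59), Aurka (0.51), Plk1 (0.51), Ccnb1 (0.40), Chac1 (0.40), Kif2c (0.39), Cenpf (0.38), Bub1b (0.38), Kif11 (0.36), Aspm (0.33), Ccna2 (0.29), Herpud1 (0.25), Mki67 (0.20), Nolc1 (0.20) and Cdc20 (0.19). Among genes raised in wild-type MEFs it was positive for Il11 (0.87), Inka2 (0.57), Ptgs2 (0.51), Inhbb (0.49), Slc19a2 (0.41), Psrc1 (0.37), Ccng1 (0.34), Eda2r (0.34), Txnrd1 (0.24), Trp53inp1 (0.20) and Cdkn1a (0.16). It was negative, a lower change in 3KR than in wild-type MEFs, for the raised genes Notch3 (-0.66), Insig1 (-0.53), Mrc1 (-0.49), Vcan (-0.34), Msmo1 (-0.27), Tef (-0.24), Hmox1 (-0.22) and Ddit4 (-0.19). For lowered genes the difference was negative for Il1rn (-0.60), Lgr5 (-0.41) and Bmp4 (-0.36). Genes not called in wild-type MEFs were Ccn3 (-0.67), Eln (-0.63) and Neat1 (0.57). Genotype and sex cannot be told apart in these differences, and no explanation was tested.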

How the results depend on the processing

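The number of genes changed by NCS was 3088 to 5239 over the alternatives, within 1.5 times of 4090 in each, and 0 shared calls changed direction in any of them. With the replicate block it was 5239, with 4086 of the 4090 genes shared, and with only the 6 wild-type samples 3088, with 3062 shared. The count of genes changed at least 2-fold was 79 with at least 10 counts in every sample, where 13433 genes were tested. The count of genes whose response differed between genotypes was least stable, at 1379 with the replicate block, 1842 without replicate 3 of wild-type MEFs in both treatments, and 361 to 1159 with each wild-type sample left out in turn. The cause was not tested. The fit with only the 6 wild-type samples cannot give this count. Of 2248 recomputed log2 fold changes of named genes, 2166 kept direction and side of the threshold, 75 lost the call, 7 gained it and 0 changed direction. Among named genes the pairing changed only the call of Ccn3. Of 962 recomputed list counts 108 moved by more than 1.5 times, and those from a left-out library are given beside the lists. Scaling by library totals moved 31 of 173 ratios of named genes by more than the spread between replicates. The simulation recovered small changes only in part, and 3 samples a group limit every call.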

Other observations

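A single wild-type library departed at least 8-fold from both others of its group in the genes given here. The rule, chosen after seeing the data, also asked for at least 32 normalised counts in both other libraries or 64 in the departing one. Tmem158, a membrane protein induced by RAS signalling, had 10350.0, 11450.0 and 92.1 normalised counts in untreated replicates 1 to 3 and 12990.0, 13920.0 and 8807 after NCS. Scrt2, a zinc finger repressor, had 190.5, 189.7 and 201 untreated and 7.18, 12.9 and 232 after NCS. Hepacam2, an adhesion molecule, had 69.6 in untreated replicate 1 and 0 to 2.05 in the other 5 libraries. These values have no replicate behind them and their part in the results above was not tested.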
